A study of Mus musculus with 8 samples.

Results

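The 33 genes described here encode the machinery with which the endoplasmic reticulum (ER) folds, quality-controls and senses proteins. They were chosen by name and not by their values, and all 33 were found among the 34478 genes of the deposited table. RNA was sequenced from 4 primary cell lines, named #1, #3, #5 and #10, that were derived from pancreatic ductal adenocarcinoma (PDAC) of a genetically engineered mouse model. Every line and therefore every group carried the alleles Ptf1awt/Cre, in which the pancreatic gene Ptf1a drives a Cre recombinase, and Trp53loxP/loxP, from which Cre removes Trp53. The control group was treated with DMSO, the solvent, and the MEKi group received trametinib, an inhibitor of the kinase MEK, for 48 h at the concentration that inhibits the respective line by 50% (IC50). Each line gave 1 library per treatment, which makes 8 libraries and 4 pairs. The labels do not say whether the lines came from separate animals or cultures, so the p-values measure the spread between these lines only.

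Proteins that enter the ER pass the Sec61 translocon, are bound by chaperones such as BiP and by lectins, receive disulfide bonds from protein disulfide isomerases, and are returned from the Golgi by KDEL receptors if they are residents. Chains that fail to fold are drawn back to the cytosol and destroyed by ER-associated degradation (ERAD). When unfolded proteins accumulate, the sensors PERK, IRE1 and ATF6 start the unfolded protein response, which lowers translation and raises the genes of folding and ERAD, and secretory tissues such as the pancreas are known to depend on it.

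Values are normalized counts per gene, and changes are log2 fold changes of trametinib minus DMSO on values to which 1 had been added, tested in limma models that held the cell line as a block. Adjusted p-values are Benjamini-Hochberg values over the 15888 genes whose mean normalized count was at least 10, and a gene was called at an adjusted p under 0.05. Library totals ranged from 30680091 to 36385719 normalized counts, and all 33 genes passed the filter. Reads per library, estimated from what 1 read was worth among the low values, numbered about 29300000 to 45900000. They did not follow the order of the totals. The MEK targets Dusp6 and Spry4, which report on the treatment, had log2 fold changes of -2.51 and -3.61. Of the ductal markers, Krt8 was the highest, Epcam was listed at 0 in both libraries of 3 lines, and the summed level of all 8 markers was 222234 to 350363 with DMSO and 114056 to 222637 with trametinib. Of the 7 ductal markers tested, 5 were lower and 1 was higher. Acinar markers summed to between 27.7 and 279 per library with Cpa1 and Amy2a1 listed at 0 throughout, endothelial markers to between 17.5 and 72.5, and plasma cell markers without Sdc1 to between 8.04 and 16.8. Fibroblast markers summed to 94.9 to 366 with DMSO and 440 to 1258 with trametinib, with Col1a1 the highest and Lum listed at 0. Without Col1a1 they summed to between 62.6 and 236 per library. Of the 5 fibroblast markers tested, Col1a1 was higher, at 3.60 on the log2 scale, and 4 were not called. Macrophage markers summed to 150 to 234 with DMSO and 236 to 518 with trametinib. The highest markers of the acinar, endothelial and macrophage lists were Cela1, Kdr and Cd68, and Csf1r of the macrophage list was higher in all 4 lines at 2.83 on the log2 scale, whereas Cd68 was higher in 2 and lower in 2 and was not called. The part of these marker changes in the results was not tested.

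The 33 genes did not move in 1 direction. With trametinib 7 were higher, which is 21.2% against 27.3% of all genes tested, and 9 were lower, which is 27.3% against 25.6%. Their median log2 fold change was -0.034, beside 0.072 for all genes tested. Every trametinib library lay above every DMSO library for 4 of the genes (15.1% of all genes tested) and below for 3 (16.2%). Higher were the sensor Eif2ak3, the transcription factor Xbp1, the ERAD genes Sel1l, Herpud1 and Syvn1, the co-chaperone Dnajb9 and the receptor Kdelr3. Lower were the translocon-associated Ssr1, Ssr2 and Sec61b, the folding genes Creld2, Hsp90b1 and Manf, the sensor Ern1, the ERAD gene Derl2 and the receptor Kdelr2. In bulk RNA, fewer cells with a transcript and less of it per cell cannot be told apart. The count of higher genes was 5 to 9 over all alternatives, whereas that of lower genes was 3 with libraries rescaled to equal totals and 2 without the block, and it was 5, 14, 3 and 3 without lines #1, #3, #5 and #10. Rescaling to equal totals moved the median of all genes by 0.13 and the share of higher genes among all calls from 51.6% to 61.9%, and quantile normalization moved the median by -0.10.

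**Figure D1:**
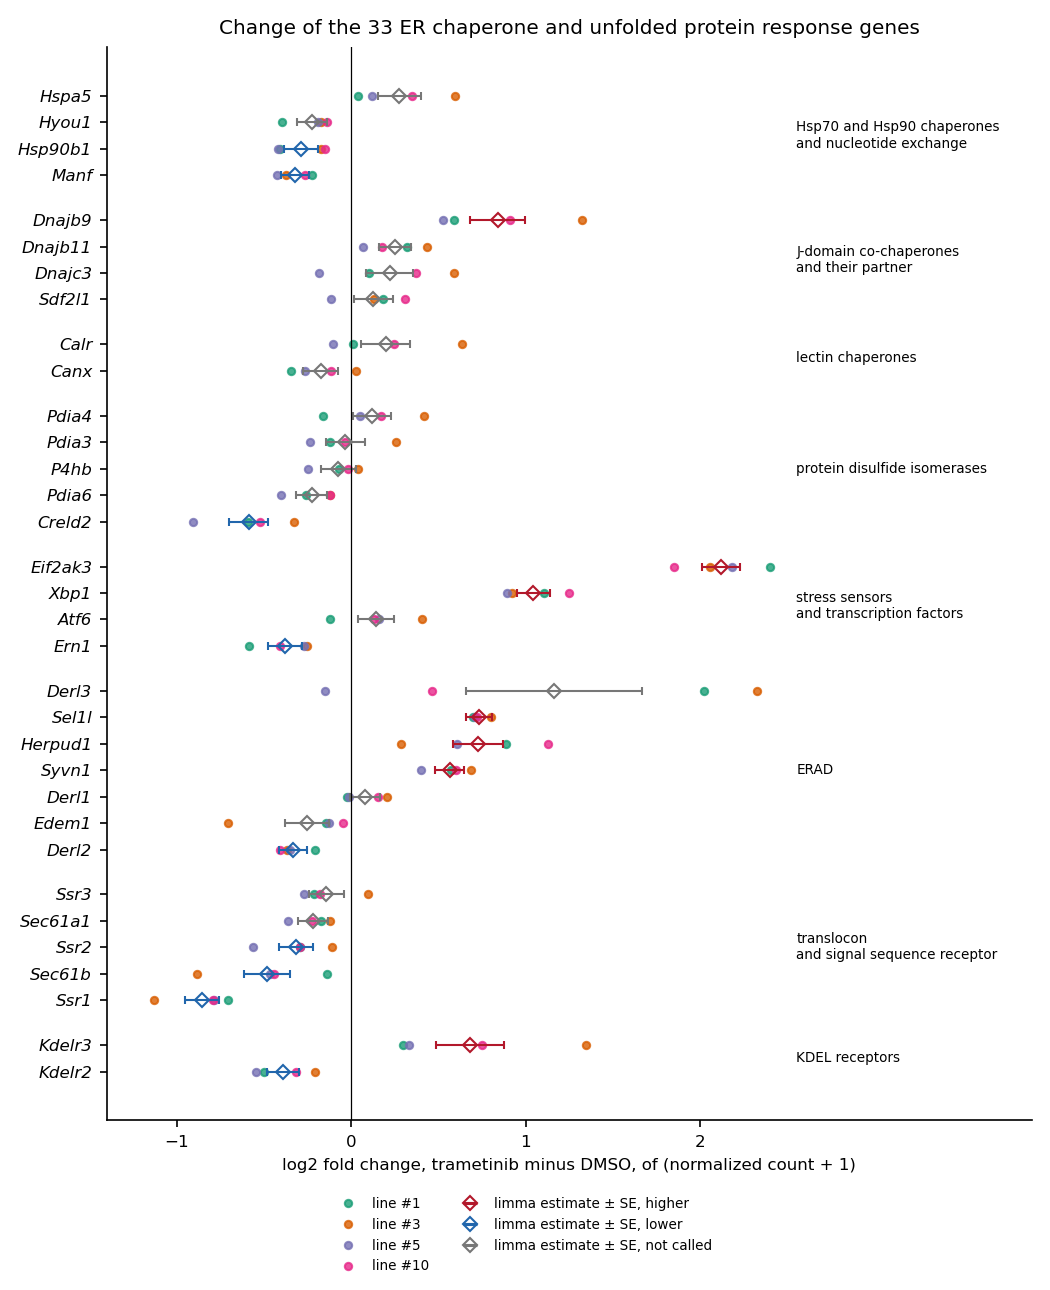
Log2 fold change of each of the 33 genes, grouped by role (vertical axis), with 1 coloured point per cell line and an open diamond with a bar for the limma estimate ± SE. Eif2ak3 lies farthest to the right at 2.12 and Ssr1 farthest to the left at -0.85, and P4hb and Pdia3 lie near 0.

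To place these changes beside known control elements, the window from 250 bases before to 50 bases after the annotated start was searched in RefSeq promoter sequences of GRCm38.p6, which held 26 of the 33 genes. No window was available for Atf6, Derl1, Hyou1, Kdelr2, Manf, Sec61a1 and Ssr2, of which Kdelr2, Manf and Ssr2 were called lower. The ER stress response element (ERSE), read by ATF6 with the factor NF-Y, was searched as CCAAT and CCACG with 9 bases between. The related ERSE-II was searched as ATTGG and CCACG with 1 base between, the unfolded protein response element (UPRE) as TGACGTGG, the cyclic AMP response element (CRE) as TGACGTCA and an ATF4-type site as TTGCATCA, each on both strands. An ERSE was found in 9 of the 26 genes, against 0.137% of the 27025 genes with a window in the table. An ERSE-II was found in 2 genes (0.0444% of all genes with a window), a UPRE in 1 (0.714%), an ATF4-type site in 1 (1.03%) and a CRE in 0 (2.03%). The sequences below are those of selected genes, written 5′ to 3′ on the strand of the gene, with a matched site in capitals. Some called genes without a motif, such as Dnajb9, Sel1l and Ssr1, are not shown. Matches describe the letters of the window and not the binding of a factor.

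The stress sensors went in different directions. Eif2ak3 encodes PERK, the kinase that slows translation by phosphorylating eIF2α, and lies on the plus strand at chr6:70844515-70905245. Its normalized counts in lines #1, #3, #5 and #10 were 1048, 1101, 1316 and 704 with DMSO and 5533, 4572, 5961 and 2536 with trametinib. Every trametinib library was above every DMSO library, with line #10 the lowest under both treatments. Eif2ak3 rose by 2.12 on the log2 scale (SE 0.11, adjusted p = 9.65e-05 in limma), or 4.35-fold, and single lines ranged from 1.85 to 2.40. Per kilobase of exon, Eif2ak3 went from 173 to 772 normalized counts on average. An exon of Gm43292 overlaps the gene on the other strand, and whether the counting used strand is not given in the sources used here. The upstream sequence at chr6:70844265-70844514 held none of the 5 motifs.
Eif2ak3: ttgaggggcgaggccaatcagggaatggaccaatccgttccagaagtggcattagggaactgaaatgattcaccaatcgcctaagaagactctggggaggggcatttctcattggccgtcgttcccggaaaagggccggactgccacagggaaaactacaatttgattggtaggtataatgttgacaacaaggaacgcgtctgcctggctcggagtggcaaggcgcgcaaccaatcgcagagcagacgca

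Xbp1 encodes the transcription factor that is activated when IRE1 splices its mRNA, and lies on the plus strand at chr11:5520659-5525893. The normalized counts were 1398, 2106, 1459 and 1230 with DMSO and 3013, 3995, 2709 and 2916 with trametinib in lines #1, #3, #5 and #10. Groups did not overlap, and line #3 was the highest with either treatment. Xbp1 rose by 1.04 on the log2 scale (SE 0.095, adjusted p = 0.000443 in limma), or 2.06-fold. The gene-level values do not separate spliced from unspliced Xbp1 mRNA. None of the motifs was found in its window, whose upstream bases are chr11:5520391-5520640.
Xbp1: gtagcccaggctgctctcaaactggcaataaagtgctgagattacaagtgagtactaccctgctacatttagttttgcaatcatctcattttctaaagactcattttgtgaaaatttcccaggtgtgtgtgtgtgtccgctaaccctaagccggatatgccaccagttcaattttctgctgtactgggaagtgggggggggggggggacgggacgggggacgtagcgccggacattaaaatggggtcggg

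Ern1 encodes IRE1, the kinase and RNase that splices Xbp1, at chr11:106394650-106487852. With DMSO it stood at 1918, 1767, 1962 and 1274 normalized counts and with trametinib at 1277, 1482, 1626 and 961 in lines #1, #3, #5 and #10. It was lower in each line while the groups overlapped, because line #10 was low throughout. Ern1 fell, with a log2 fold change of -0.38 (SE 0.096, adjusted p = 0.0151 in limma), and the call was lost without line #1 or #10, without the block and with equal totals, up to an adjusted p of 0.205. Within a line, the change of Eif2ak3 exceeded that of Ern1 by 2.25 to 2.99 log2 units, a pair chosen after the values were seen and given as a description. Atf6, the sensor that is cleaved in the Golgi to become a transcription factor, was at 2709 to 3675 normalized counts with DMSO and 2967 to 4863 with trametinib. Its log2 fold change was 0.14, with a 95% interval from -0.10 to 0.39 (adjusted p = 0.283 in limma), and line #1 had a value below 0.

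**Figure D2:**
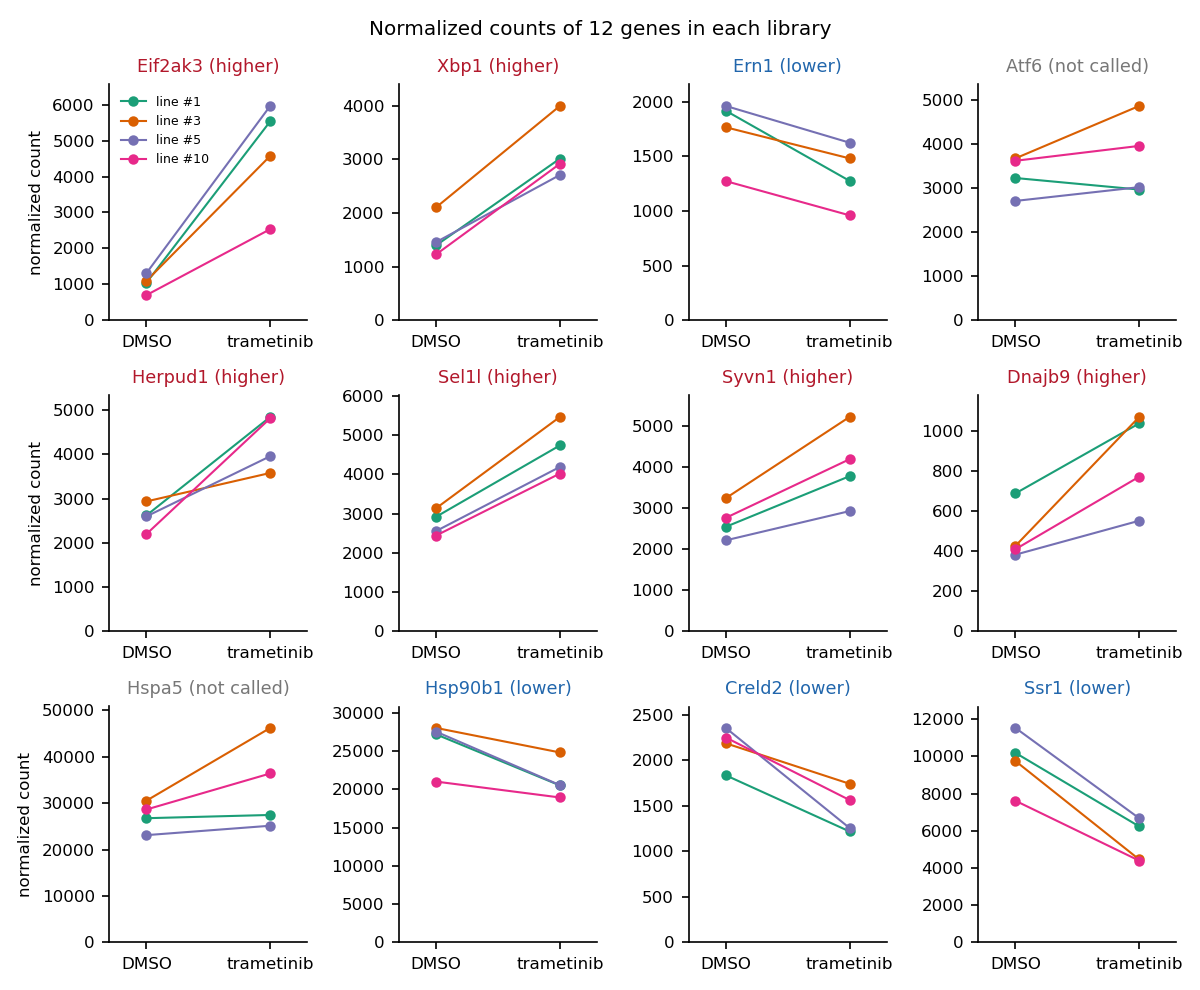
Normalized counts (vertical axis, from 0) of 12 of the genes in each DMSO and trametinib library, with a line joining the libraries of each cell line. All 4 lines rise for Eif2ak3, Xbp1, Herpud1, Sel1l, Syvn1 and Dnajb9 and fall for Ern1, Hsp90b1, Creld2 and Ssr1, whereas Hspa5 is nearly level in lines #1 and #5.

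Among the 7 ERAD genes, 3 (42.9%, against 27.3% of all genes tested) were higher, 1 (14.3%, against 25.6%) was lower and 3 were not called. Sel1l encodes the adaptor that holds the ubiquitin ligase HRD1 in place, at chr12:91806043-91849157. It went from 2921, 3139, 2558 and 2444 normalized counts to 4739, 5465, 4191 and 4022 in lines #1, #3, #5 and #10, without overlap. Its changes were the most even of the 33 genes, 0.70 to 0.80 per line, and the log2 fold change was 0.73 (SE 0.076, adjusted p = 0.00062 in limma). Syvn1, which encodes HRD1 itself, lies on the plus strand at chr19:6046576-6053712 and overlaps exons of Mrpl49 on the other strand. Its counts were 2550, 3248, 2221 and 2769 with DMSO and 3784, 5229, 2933 and 4198 with trametinib. Each line was higher with trametinib, but line #5 with trametinib stayed below line #3 with DMSO. Syvn1 rose by 0.56 on the log2 scale (SE 0.085, adjusted p = 0.00196 in limma), and without the block the adjusted p was 0.0586. Syvn1 was the only called riser with an ERSE, shown here in its upstream bases chr19:6046326-6046575.
Syvn1: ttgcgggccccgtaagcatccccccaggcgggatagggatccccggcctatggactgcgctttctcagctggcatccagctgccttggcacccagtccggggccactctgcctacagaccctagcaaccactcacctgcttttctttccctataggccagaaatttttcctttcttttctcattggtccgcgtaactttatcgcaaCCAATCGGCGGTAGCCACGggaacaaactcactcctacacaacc

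Herpud1 encodes a membrane protein that brings substrates to HRD1 and lies at chr8:94386438-94395377. It stood at 2623, 2938, 2600 and 2201 normalized counts with DMSO and at 4847, 3581, 3959 and 4817 with trametinib in lines #1, #3, #5 and #10. The groups did not overlap, and line #3, the highest with DMSO, was the lowest with trametinib. Herpud1 rose by 0.73 on the log2 scale (SE 0.14, adjusted p = 0.0055 in limma), from 0.29 in line #3 to 1.13 in line #10. Its window was the only one among the 26 with an ATF4-type site and also held an ERSE-II, 112 and 52 bases before the start, in chr8:94386179-94386428 on the plus strand.
Herpud1: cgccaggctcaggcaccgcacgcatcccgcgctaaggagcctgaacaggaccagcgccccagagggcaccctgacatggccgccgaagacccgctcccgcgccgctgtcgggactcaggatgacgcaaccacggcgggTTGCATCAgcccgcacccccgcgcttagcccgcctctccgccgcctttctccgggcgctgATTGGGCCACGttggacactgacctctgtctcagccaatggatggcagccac

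Derl2 encodes a channel-like derlin and was lower in each line. Its counts were 1953, 3204, 2570 and 2492 with DMSO and 1691, 2486, 2019 and 1874 with trametinib, and the groups overlapped since line #1 was low throughout. For Derl2 the log2 fold change was -0.33 (SE 0.082, adjusted p = 0.0136 in limma), and the call was lost without line #5 or #10, without the block and with equal totals. Its relative Derl1 had a log2 fold change of 0.080 with a 95% interval from -0.12 to 0.28. Derl3 was scarce, at 6.74, 13.3, 3.92 and 11.9 normalized counts with DMSO and 30.4, 70.4, 3.42 and 16.8 with trametinib. Lines #1 and #3 stood well above their controls, whereas line #5 was near the floor of 3 reads in both libraries. Derl3 averaged 8.97 with DMSO and 30.3 with trametinib, so in the main fit it passed the filter at 10 only through its trametinib libraries. The estimate of 1.16 (SE 0.51, adjusted p = 0.0931 in limma) is therefore a description. It was called only without line #5, at 0.0458. Edem1, which marks misfolded glycoproteins for degradation, had values from 2245 to 4321 with DMSO and from 2177 to 3536 with trametinib. All 4 lines were lower, line #3 by far the most at -0.71, and the log2 fold change of -0.26 had an adjusted p of 0.129 in limma.

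Of the 4 J-domain co-chaperones and their partner, which stimulate BiP, only Dnajb9 was called (25.0% higher, against 27.3% of all genes tested). Dnajb9, which encodes ERdj4 and also holds IRE1 inactive, lies at chr12:44205559-44210326. Its normalized counts were 689, 427, 383 and 410 with DMSO and 1038, 1070, 552 and 772 with trametinib in lines #1, #3, #5 and #10. Line #1 with DMSO stood above line #5 with trametinib, so the groups overlapped although each line was higher. Dnajb9 rose by 0.84 on the log2 scale (SE 0.16, adjusted p = 0.00451 in limma), largest in line #3 at 1.32. Dnajb11 (ERdj3), whose window held the other ERSE-II, had values above those of DMSO in all 4 lines, at 0.25 on the log2 scale (adjusted p = 0.0553 in limma). It was called higher with equal totals, at 0.38, with quantile normalization, at 0.37, and with the filter at a mean of 50. Dnajc3 (p58IPK), at 0.22 with a 95% interval from -0.10 to 0.54, and Sdf2l1, the partner of ERdj3, at 0.13 with an interval from -0.14 to 0.39, were below 0 in line #5.

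Of the 4 genes for Hsp70 and Hsp90 chaperones and nucleotide exchange, Hsp90b1 and Manf were lower (as were 25.6% of all genes tested) and Hspa5 and Hyou1 were not called. Hspa5 encodes BiP, the central ER Hsp70 and the usual readout of ER stress, on the plus strand at chr2:34771970-34777547. It was at 26770, 30553, 23122 and 28648 normalized counts with DMSO and at 27469, 46223, 25146 and 36410 with trametinib in lines #1, #3, #5 and #10. With trametinib, lines #3 and #10 lay above the DMSO range and lines #1 and #5 within it. For Hspa5 the log2 fold change was 0.28 with a 95% interval from -0.015 to 0.57 (adjusted p = 0.0975 in limma). It was called higher with equal totals and with quantile normalization, where the estimate reached 0.59. An ERSE lay 65 bases before the start of the promoter annotation, in chr2:34771840-34772089. That start lies downstream of the gene start given above, so the site falls inside the printed gene span.
Hspa5: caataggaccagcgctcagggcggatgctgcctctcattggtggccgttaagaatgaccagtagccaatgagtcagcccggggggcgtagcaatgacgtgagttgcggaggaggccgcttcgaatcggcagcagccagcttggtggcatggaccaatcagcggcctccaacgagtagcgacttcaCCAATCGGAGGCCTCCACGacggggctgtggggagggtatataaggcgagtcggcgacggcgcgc

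Hsp90b1 encodes GRP94, the Hsp90 of the ER, on the minus strand at chr10:86690209-86705509. Its counts were 27206, 28045, 27555 and 21031 with DMSO and 20532, 24842, 20570 and 18953 with trametinib. Exons of Gm15344 and Gm25745 overlap Hsp90b1 on the same strand, and reads could be split between them. All lines were lower with trametinib, and the low DMSO library of line #10 made the groups overlap. Hsp90b1 fell, with a log2 fold change of -0.29 (SE 0.098, adjusted p = 0.0433 in limma), and the call was lost in 8 of 14 alternatives. Within a line, the change of Hspa5 exceeded that of Hsp90b1 by 0.44 to 0.77, a pair chosen after the values were seen and given as a description. The bases upstream of the start in the promoter annotation, chr10:86705445-86705694, partly overlap the gene span given above and held 2 ERSE in opposite orientations.
Hsp90b1: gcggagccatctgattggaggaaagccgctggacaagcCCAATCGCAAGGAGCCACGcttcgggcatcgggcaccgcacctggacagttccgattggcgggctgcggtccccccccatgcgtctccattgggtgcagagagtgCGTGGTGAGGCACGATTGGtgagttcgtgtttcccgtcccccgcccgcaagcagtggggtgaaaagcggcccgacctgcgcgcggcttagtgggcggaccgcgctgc

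Manf, a secreted nucleotide-exchange inhibitor of BiP, stood at 3216, 3263, 3330 and 2513 normalized counts with DMSO and 2751, 2514, 2479 and 2095 with trametinib. It was lower in each line, with overlap only through the DMSO library of line #10. The log2 fold change was -0.32 (SE 0.082, adjusted p = 0.0152 in limma), and the call was lost without line #5 or #10, without the block, with equal totals and with quantile normalization. Hyou1 (GRP170), which exchanges the nucleotide of BiP, had lower values in all 4 lines, at -0.23 on the log2 scale (adjusted p = 0.0598 in limma). The lectin chaperones calreticulin and calnexin, which hold glycoproteins and also serve the folding of class I molecules, were not called. Calr was at 26971 to 31907 normalized counts with DMSO and 25121 to 47893 with trametinib, a log2 fold change of 0.20 with a 95% interval from -0.14 to 0.53. With quantile normalization alone it was called higher, at 0.51 (adjusted p = 0.0301 in limma). Canx was at 21038 to 26109 and 16955 to 26636, a log2 fold change of -0.17 with an interval from -0.41 to 0.064. Without line #3 alone it was called lower, at -0.24 (adjusted p = 0.0347 in limma). Line #3 was the highest library of both genes under trametinib.

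Of the 5 genes grouped with the protein disulfide isomerases, only Creld2 was called (1 of 5 lower, against 25.6% of all genes tested). Creld2 encodes a secreted ER-stress protein with isomerase activity, on the plus strand at chr15:88819646-88826683. It fell from 1833, 2184, 2353 and 2248 normalized counts to 1217, 1740, 1255 and 1562 in lines #1, #3, #5 and #10. Every trametinib library was below every DMSO library, and line #5 changed most. Creld2 fell by 0.59 on the log2 scale (SE 0.11, adjusted p = 0.00503 in limma). Its upstream bases chr15:88819396-88819645 held an ERSE in reverse orientation, 126 bases before the start.
Creld2: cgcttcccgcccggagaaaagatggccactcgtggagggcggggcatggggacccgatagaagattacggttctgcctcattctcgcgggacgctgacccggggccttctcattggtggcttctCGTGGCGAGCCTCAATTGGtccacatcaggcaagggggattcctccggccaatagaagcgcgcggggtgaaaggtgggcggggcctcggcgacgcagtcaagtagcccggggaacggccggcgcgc

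The other 4 isomerases were not called. P4hb, the classical PDI and per kilobase of exon the most abundant of the 33 genes, averaged 35802 ± 4788 normalized counts with DMSO and 34195 ± 6501 with trametinib (SD, n = 4 lines). The 95% interval of its log2 fold change was -0.31 to 0.16. For Pdia3 (ERp57), the partner of the lectins, the interval was -0.30 to 0.23, and for Pdia4 (ERp72) it was -0.14 to 0.38. Pdia6 (P5), which attenuates IRE1 and PERK signaling, had lower values in all 4 lines, at -0.23 on the log2 scale (adjusted p = 0.0666 in limma). With quantile normalization the estimates of P4hb, Pdia3 and Canx turned above 0.

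All 5 genes of the translocon and the signal sequence receptor had a log2 fold change below 0 (3 of them with quantile normalization), as had 7394 of the 15888 genes tested, and 3 were called lower (25.6% of all genes tested), of which only Ssr1 held in all alternatives. Ssr1 encodes TRAPα, the subunit of the translocon-associated complex that helps weak signal sequences to insert, at chr13:37966605-37994217. Its normalized counts were 10191, 9751, 11532 and 7616 with DMSO and 6236, 4460, 6676 and 4396 with trametinib in lines #1, #3, #5 and #10. The groups did not overlap, with both treatments highest in line #5. Ssr1 fell by 0.85 on the log2 scale (SE 0.097, adjusted p = 0.000818 in limma), to 0.553 of its level with DMSO, and by most in line #3. Ssr2 (TRAPβ) went from 7489, 6817, 7284 and 7099 to 6115, 6321, 4922 and 5792, also without overlap. Its log2 fold change was -0.32 (SE 0.097, adjusted p = 0.0317 in limma), and the call was lost in 8 of 14 alternatives. Sec61b, a small subunit of the channel, went from 1813, 1641, 1760 and 1616 to 1644, 890, 1276 and 1191. It was lower in each line, but the trametinib library of line #1 lay within the DMSO range. The log2 fold change was -0.48 (SE 0.13, adjusted p = 0.0193 in limma), from -0.14 in line #1 to -0.88 in line #3, and the call was lost without line #5 or #10, without the block and with equal totals. The pore subunit Sec61a1 was lower in 4 of 4 lines at -0.22 (adjusted p = 0.0702 in limma) and Ssr3 (TRAPγ) was at -0.14 with a 95% interval from -0.38 to 0.093, and both turned above 0 with quantile normalization.

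Of the KDEL receptors, which return ER residents from the Golgi, Kdelr3 was higher and Kdelr2 lower, while Kdelr1, counted under ER to Golgi traffic, was not called (log2 fold change 0.027, adjusted p = 0.812 in limma). Exons of Kdelr3 overlap Ddx17 on the other strand. Kdelr3 went from 384, 355, 280 and 311 normalized counts with DMSO to 473, 902, 353 and 523 with trametinib in lines #1, #3, #5 and #10. Line #3 rose most, and line #5 with trametinib remained within the DMSO range. The log2 fold change was 0.68 (SE 0.20, adjusted p = 0.0249 in limma), and the call was lost without line #10, without the block, with quantile normalization and with centring on the median, up to an adjusted p of 0.102. Kdelr2, per kilobase of exon the more abundant at 2069 against 236 normalized counts with DMSO, went from 4059, 4386, 3436 and 3253 to 2867, 3796, 2358 and 2608. It was lower in each line, with overlap through line #3. Its log2 fold change was -0.39 (SE 0.091, adjusted p = 0.0107 in limma), and the call was lost without line #1 or #5 and without the block. The difference between the receptors was 0.80 to 1.55 log2 units per line, a pair chosen after the values were seen and given as a description.

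Of the 9 genes with an ERSE, Syvn1 was higher, Creld2 and Hsp90b1 were lower, and Hspa5, Calr, Canx, Pdia6, Dnajc3 and Derl3 were not called, with a median log2 fold change of 0.20. That median includes Derl3, which passed the filter only through its trametinib libraries. Without Derl3 it would lie between Canx at -0.17 and Calr at 0.20, so the medians of the groups are not compared. Of all genes tested, 27.3% were higher and 25.6% lower, and the counts in such small groups are a description. Among the 17 genes with a window and no ERSE, 6 were higher, 4 were lower and 7 were not called, with a median of 0.12. The genes without a window, among them the lower Manf, Ssr2 and Kdelr2, are in neither group. Of 28 other genes in the promoter table with an ERSE, 10 were tested, of which 8 were not called. Alg12, which adds a mannose to the glycan precursor, was higher at 0.31. That call was lost at least without line #5, with centring on the median and without the block. Hnrnpa3, a splicing factor, was lower at -1.01. With 8 to 10 bases between the parts of the ERSE, the same 9 genes matched. The remaining ERSE are shown with 15 bases on either side, together with the UPRE of Kdelr3, to let the called and the uncalled genes be compared.
Calr: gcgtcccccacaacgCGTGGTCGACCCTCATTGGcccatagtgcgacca
Canx: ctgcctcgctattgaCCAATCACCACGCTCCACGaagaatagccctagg
Pdia6: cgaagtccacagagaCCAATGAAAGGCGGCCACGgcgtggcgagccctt
Dnajc3: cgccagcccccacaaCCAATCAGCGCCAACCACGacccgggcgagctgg
Derl3: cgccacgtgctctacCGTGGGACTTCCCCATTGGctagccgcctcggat
Kdelr3: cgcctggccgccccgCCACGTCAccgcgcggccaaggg

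**Figure D3:**
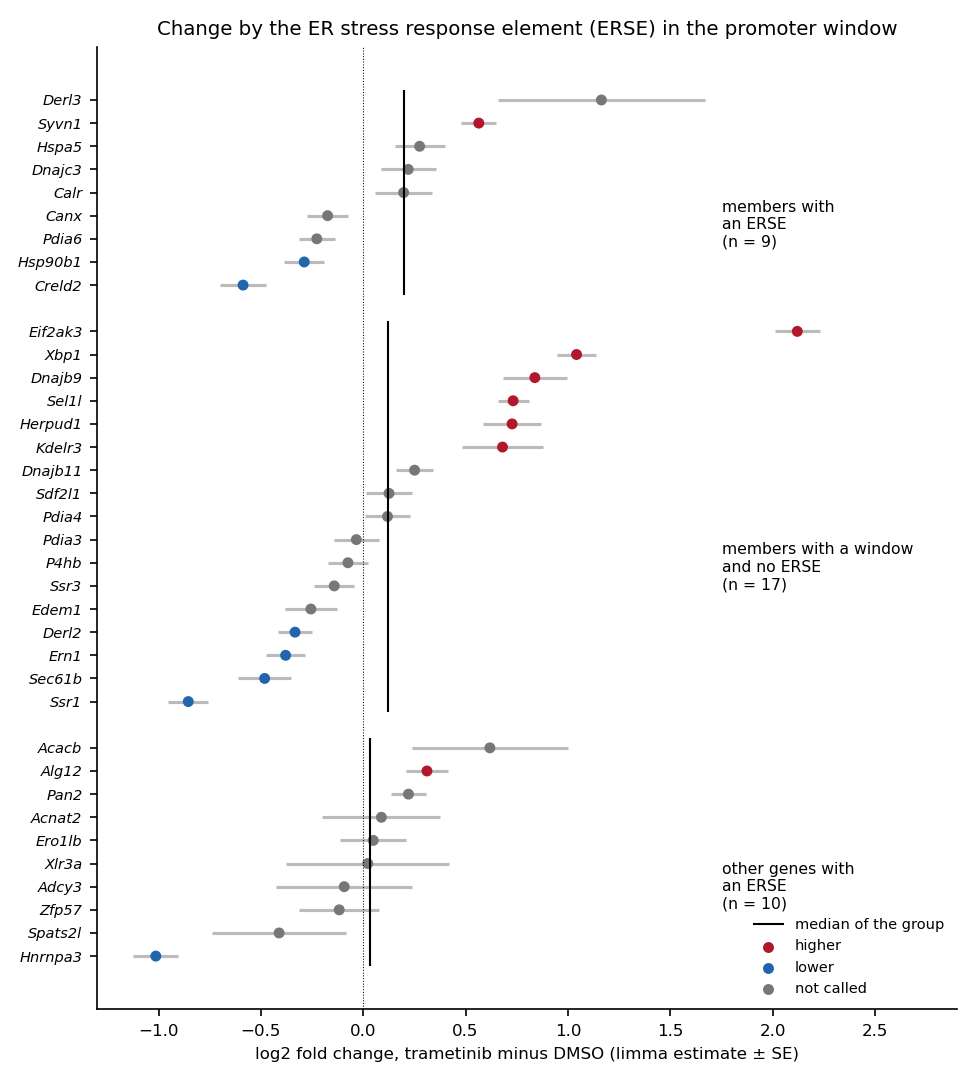
Limma log2 fold change ± SE (horizontal axis) of the 9 genes with an ERSE in the promoter window, of the 17 with a window and none, and of 10 other tested genes with an ERSE, with a vertical line at the median of each group. Eif2ak3, Xbp1, Dnajb9, Sel1l, Herpud1 and Kdelr3, the risers in the middle group, have no ERSE in the window, and Syvn1 has. Derl3, the highest of the 9, passed the filter only through its trametinib libraries.

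The lines differed in how the 33 genes moved. The median log2 fold change was -0.12 in line #1, 0.13 in line #3, -0.19 in line #5 and -0.021 in line #10, whereas that of all genes tested was 0.034 to 0.063. Line #3 had the highest change of the 4 lines for 21 of the 33 genes, against 29.6% of all genes, and line #5 had the lowest for 18, against 21.6%. Together the genes took up 0.943% of the normalized counts of line #3 with DMSO and 1.16% with trametinib, whereas the other 6 libraries were at 0.763% to 0.863%. Hspa5, Calr and Pdia3 were at their highest in line #3 with trametinib. With 1 library per line and treatment, differences between lines have no replicate and were not tested.

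**Figure D4:**
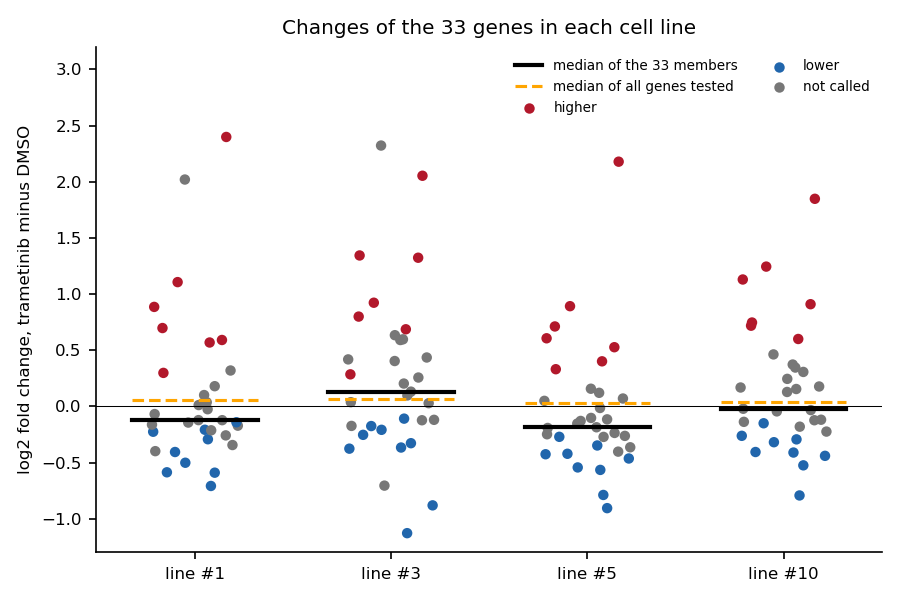
Log2 fold changes of the 33 genes (points, coloured by the call in limma) in each cell line, with the median of the 33 genes as a black bar and that of all genes tested as a dashed bar. The black bar is above the dashed bar in line #3, at 0.13 against 0.063, and below it in the other lines.

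Beyond the 33 genes, 7 lists of neighbouring pathways held 162 tested genes, of which 45 (27.8%) were higher and 33 (20.4%) lower, against 27.3% and 25.6% of all genes tested, with a median log2 fold change of 0.035. The balance depended on the scaling, with 66 higher and 24 lower with equal totals and 33 higher and 37 lower with centring on the median. In the PERK and ATF4 arm, 8 of 17 genes (47.1%) were higher and 2 (11.8%) lower, with a median of 0.27. The 7 not called were Atf4, Asns, Cebpb, Cebpg and the kinases Eif2ak1, Eif2ak2 and Eif2ak4. Atf4 itself had lower values in all 4 lines, at -0.31 on the log2 scale (adjusted p = 0.148 in limma). Nupr1, a stress-induced chromatin protein, rose by 2.66 and Eif2s1, which encodes eIF2α, the substrate of PERK, fell by 1.05 on the log2 scale. Among 21 other ER stress regulators, 7 (33.3%) were higher and 5 (23.8%) lower, with a median of 0.20, with Creb3l1, an ATF6-like factor, at 2.12 and the cell death gene Bax at -0.49. Without the block, 3 of these regulators were higher and 1 lower. Other ERAD genes were split into 6 higher and 6 lower of 24, 25.0% each way with a median of 0.028, with the lectin Os9 at 0.98 and Erlin1 at -1.02. This split moved to 11 and 6 with equal totals, 9 and 5 with quantile normalization, 4 and 7 with centring on the median and 1 and 4 without the block.

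Of 28 other oxidative and prolyl folding enzymes, 10 (35.7%) were higher and 5 (17.9%) lower, with a median of 0.069, with the collagen chaperone Serpinh1 at 1.52 and the prolyl isomerase Fkbp11 at -1.23. Genes of N-glycosylation and the lectin cycle were higher in 3 (13.0%) and lower in 8 (34.8%) of 23 cases, with a median of -0.048, with the folding sensor Uggt2 at 0.49 and the oligosaccharyltransferase subunit Krtcap2 at -0.69. Other translocation and signal peptide genes were higher in 3 (15.8%) and lower in 5 (26.3%) of 19 cases, with a median of -0.075, with Sec62 at 0.80 and Ssr4, the fourth subunit of the signal sequence receptor, at -0.65. For ER to Golgi traffic the counts were 8 higher (26.7%) and 2 lower (6.67%) of 30, with a median of -0.016, Arfgap3 at 1.01 and the cargo receptor Tmed5 at -0.75. Several of these counts turned on single lines: higher genes of N-glycosylation numbered 1 without line #1, #3 or #10 and 0 without line #5, its lower genes 4 without line #1 or #5 and 5 without line #10, higher genes of ER to Golgi traffic 3 without line #1 or #10 and its lower genes 1 without line #5, and lower oxidative and prolyl folding enzymes 3 without line #5 or #10. With centring on the median, 0 genes of N-glycosylation and 3 of ER to Golgi traffic were higher, and without the block these counts were 0 and 1. With libraries rescaled to equal totals the lean of N-glycosylation turned, with 7 genes higher and 4 lower, and quantile normalization gave 2 and 3, while ER to Golgi traffic had 12 and 11 higher.

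**Figure D5:**
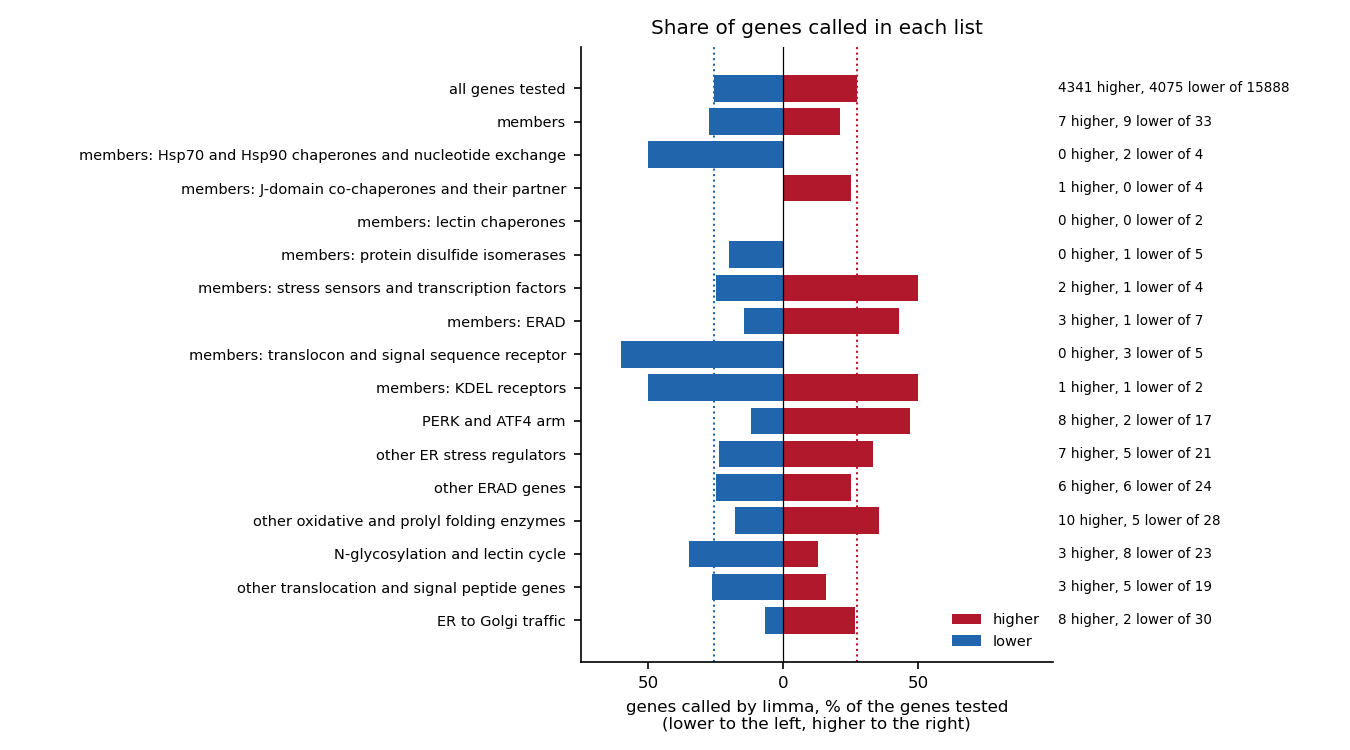
Share of the tested genes called higher (to the right) or lower (to the left) by limma, in percent, for all genes, for the 33 genes and their roles, and for 7 lists of neighbouring pathways, with dotted lines at the shares of all genes. The counts stand beside each bar, and the 33 genes together lie near the dotted lines at 7 higher and 9 lower.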

How the data were processed

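RNA came from 8 samples of primary murine PDAC lines, and poly(A) libraries were prepared with a stranded kit from 100 ng of RNA. According to the submitters' processing notes, CASAVA 2.17, Salmon 0.12, DESeq2 1.18 and the build mm10 were used. The transcript annotation and the use of strand by the counting are not given in the sources used here. The values the authors deposited are normalized counts of each gene, a signal that they made comparable between libraries. Whole reads could not be recovered, since 37.8% to 67.8% of the low values of a library (under 20 steps, where a step is what 1 read was worth) lay within 0.05 steps of a whole multiple. Tests that need counts were therefore not run. The number of columns left unused was 0. A further allele of the mouse model is not reported here.

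From these values, log2(value + 1) was tested with limma 3.58.1 in R 4.3.3 (lmFit, eBayes with a mean-variance trend, cell line as block, two-sided) over 15888 genes whose mean was 10 or more, with Benjamini-Hochberg adjustment and a threshold of 0.05. The fit was tested on simulated data. Libraries are paired because the labels give both libraries of a line its number, and the deviations of the libraries of a line from their treatment means correlated across genes at 0.631 to 0.724. Intervals are those of limma at 95% for single genes. The floor used, 3 reads for counting error alone, came to 2.33 to 3.72 normalized counts. Python 3.11.15, with pandas 2.3.3, numpy 2.4.6 and scipy 1.17.1, served for the tables, and matplotlib 3.10.9 for the plots. Gene positions and exon lengths are those of GENCODE M21 on GRCm38, the build that mm10 names, matched by symbol. Promoter sequences come from RefSeq on GRCm38.p6, and its annotated start can differ from the gene start printed here.

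All 33 genes were named. From each of the 7 other pathway lists, the gene with the largest rise and that with the largest fall were named among those called and moving in the same direction in all 4 lines. The highest marker of each list, Dusp6 and Spry4 were named too. The markers at 0, Epcam, Csf1r, Kdelr1, Alg12, Hnrnpa3 and uncalled genes of the PERK and ATF4 arm were named after their values were seen. The genes and the lists were chosen with earlier results of these data known. Exons of Hsp90b1, Manf and Pdia4 overlap another gene on the same strand, and those of Eif2ak3, Dnajb9, Pdia3, Pdia6, Syvn1, Derl2, Sec61a1, Ssr2 and Kdelr3 overlap 1 on the other strand only, so reads could have been assigned to another gene. The alternatives were other scalings (equal library totals, quantile normalization, centring on the median), pseudocounts of 0.1 and 5, the filter dropped or set at 50, no block, eBayes without trend or robust, each line left out, and another spacing of the ERSE.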

Additional observations from a re-analysis of the deposited data

Results flagged for a closer look

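For each of the 33 genes, the DMSO levels, the trametinib levels and the changes of the 4 lines were searched for a single value that stood apart. Of these 99 groups 8 held such a value, and chance flags about 1 in 20 groups, or 4.95. In the DMSO library of line #10, Hsp90b1 stood at 21031 normalized counts against 27206 to 28045 in the other lines. The same library had Manf at 2513 against 3216 to 3330, Dnajc3 at 1637 against 2556 to 2720 and Derl1 at 2618 against 3305 to 3385. Dnajb9 stood at 689 in the DMSO library of line #1 and at 383 to 427 in the others. With trametinib, line #3 had Pdia4 at 10134 against 6590 to 7017 and P4hb at 43839 against 29774 to 32131. The log2 fold change of Edem1 was -0.71 in line #3, against -0.14 to -0.044 elsewhere.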

How the results depend on the processing

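Of the 16 calls, 7 held in all 14 alternatives (Eif2ak3, Xbp1, Sel1l, Herpud1, Dnajb9, Creld2 and Ssr1) and 0 turned in direction, and 10 of the 17 genes not called gained a call in at least 1 alternative. The count of lower genes went from 9 to 3 with libraries rescaled to equal totals. With each line left out in turn it was 3 to 14, and the count of higher genes was 6 to 8. Without the block for the pairing by cell line, 5 of the 33 genes were higher and 2 lower, 2205 of all genes were higher and 2347 lower, and 20 genes of the other pathway lists were higher and 16 lower. The median of the 33 genes was 0.18 with quantile normalization. The genes that turned in direction were not called in the settings where they turned. With quantile normalization the log2 fold changes were 0.10 for Canx, 0.21 for Pdia3, 0.18 for P4hb, 0.038 for Sec61a1 and 0.14 for Ssr3. With equal totals they were 0.094 for Pdia3 and 0.053 for P4hb, and with each line left out Pdia3 was at -0.13 (without line #3) to 0.034 (without line #5). The cause was not tested. The 7 smaller falls, of 0.29 to 0.48 (Hsp90b1, Manf, Ern1, Derl2, Sec61b, Ssr2 and Kdelr2), were each lost without the block and with at least 1 line left out, and all of them but Kdelr2 with equal totals. Depth limits only Derl3, which stood near the floor of 3 reads in line #5.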
